A study of Sus scrofa with 15 samples.

Results

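Backfat, the subcutaneous fat of the back, was compared between Iberian pigs fed 2 olive by-products in the growing period. The comparison took all libraries labelled WCOC diet (n = 5) and all labelled DOP diet (n = 5), 10 of the 15 libraries of the series, with 1 library per pig. The WCOC pigs had a compound feed without by-product and, freely, a silage of wet crude olive cake with barley straw, whereas the DOP pigs had a compound feed made with dry olive pulp. All compound feeds were rationed below free intake, more so in the olive diets than in the control diet, while the silage was not. Feeding level and type of by-product therefore cannot be told apart. The other 5 libraries came from the control diet (C), a compound feed with no olive by-product, and entered the fit, where they helped to estimate the spread, while their levels are shown only beside the compared values. All pigs were of the Iberian genotype, about a year old, on their diet for most of the growing period and sedated for a biopsy of the lumbar back. Each diet was fed in a single pen, so pen and diet cannot be told apart, and the p-values measure the spread between pigs of a pen. Sequencing run and diet cannot be told apart either, since all 5 WCOC libraries were run on one flow cell (A) and all 5 DOP libraries on another (B). Of the controls, replicates 1 to 4 were on flow cell A and replicate 5 on flow cell B.

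White adipose tissue stores triglyceride in adipocytes, which make fatty acids from glucose and acetate, esterify them, and release them again by lipolysis. In the pig this tissue, rather than the liver, is the main site of fatty acid synthesis. The cells between the adipocytes (progenitors, endothelial cells and macrophages) are those that divide in adult fat, and genes of the mitotic machinery are transcribed mainly in dividing cells. In RNA of a whole biopsy, fewer cells of a type and less RNA per cell cannot be told apart.

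Of 30477 genes in the files, 14918 passed the filter on low counts. A differentially expressed gene (DEG) had an adjusted p under 0.05 in the quasi-likelihood test of edgeR and a log2 fold change (log2FC, WCOC minus DOP) of at least 0.58 in size. By this rule 1158 genes (7.76%) were DEGs, of which 396 (2.65%) were higher and 762 (5.11%) lower in WCOC. The median log2FC of all tested genes was 0.00, and 49.9% of them were below 0. Values of the 5 WCOC and the 5 DOP libraries did not overlap in 1328 genes (8.9%), 617 of them higher (4.14%) and 711 lower (4.77%) in WCOC. Leaving out 1 library lowered the number of DEGs to 639 without WCOC replicate 1, 700 without WCOC replicate 4, 731 without DOP replicate 2 and 699 without DOP replicate 5, and gave 772 to 1291 when any other one was left out. Levels are given as CPM, the counts of a gene relative to the scaled total of its library.

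The libraries held 22373715 to 34745218 counts on genes and their make-up was compared first through markers of the cell types a biopsy can hold. Adipocyte markers were abundant throughout, with ADIPOQ, the gene of adiponectin, at 8028, 5628, 5242, 4386 and 5960.5 CPM in WCOC replicates 1 to 5 and at 4432, 5367, 6756, 4889.6 and 6021 CPM in DOP replicates 1 to 5. Those levels overlapped and the difference did not pass (log2FC 0.09 ± 0.17, adjusted p = 0.782). The adipocyte marker CFD (adipsin) had no count in any of the 15 libraries, and whether reads of this gene could be counted at all was not tested. Skeletal muscle RNA, in contrast, was uneven. The 25 tested muscle markers summed to 234 CPM in DOP replicate 1, 17558 in replicate 2, 559 in replicate 3, 10835 in replicate 4 and 79921 in replicate 5, against 220 to 1441 CPM in WCOC and 259 to 6758 CPM in C. DOP replicates 2, 4 and 5 were thus higher than every other library, and DOP replicates 1 and 3 lay among the WCOC libraries. Of the 35 muscle markers listed, 26 were found in the files and 25 tested. TNNI2 had no count in any of the 15 libraries, the muscle-rich ones included. Of those tested, 19 were called lower in WCOC, against 5.11% of all tested genes, with a median log2FC of -5.75. None of the 25 had values that did not overlap between the diets, against 8.9% of all tested genes. Without DOP replicates 2, 4 and 5 none of the 25 was called and their median was 0.79.

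Because of these 3 libraries, the comparison was also fitted without them, keeping DOP replicates 1 and 3, the 5 WCOC and the 5 C libraries. That fit called 80 genes (0.517% of 15459 tested), 7 higher (0.0453%) and 73 lower (0.472%) in WCOC, and 77 of them were also DEGs with all libraries. At an unadjusted p under 0.05 it held 1903 genes. Of the genes named here as DEGs with all libraries, TOP2A, CENPF, CCNB2, CIT, PIMREG, E2F1, TK1, CLSPN, FFAR4, TF, ATP8A2, IL13RA2 and PRND were also called in that fit, which holds 2 DOP libraries, and the others were not. With the mean of the muscle markers as a covariate and all 15 libraries kept, 447 genes (3%) were called, 158 higher (1.06%) and 289 lower (1.94%). The globin gene HBB was at 1334, 1528, 1880.4, 901 and 3277 CPM in WCOC and at 2053, 15329, 2287, 2283 and 2333 CPM in DOP, so that DOP replicate 2 stood apart. Epidermal markers summed to 137 CPM in WCOC replicate 5 and 32.9 CPM in replicate 2, but to 2.81 to 4.11 CPM in the other WCOC libraries. KRT1 and DSG1, epidermal genes, were called higher in WCOC although their groups overlapped. Some calls also needed nearly all libraries. Over the 10 fits that each left out 1 WCOC or DOP library, LEPR, NDRG1, CYP1A1 and MX2 were called in 1, ACLY, SMPD1, HOXC10, DES, PRKAG3 and PPARGC1A in 2, RIMS3, DHCR7, NUSAP1, ZBTB16, ATP2A2, COX7A1 and PDE4B in 3, and PYGM, KRT1, PRDM16, HSPB8, GPX7, IL1R2 and G0S2 in 4.

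**Figure D1:**
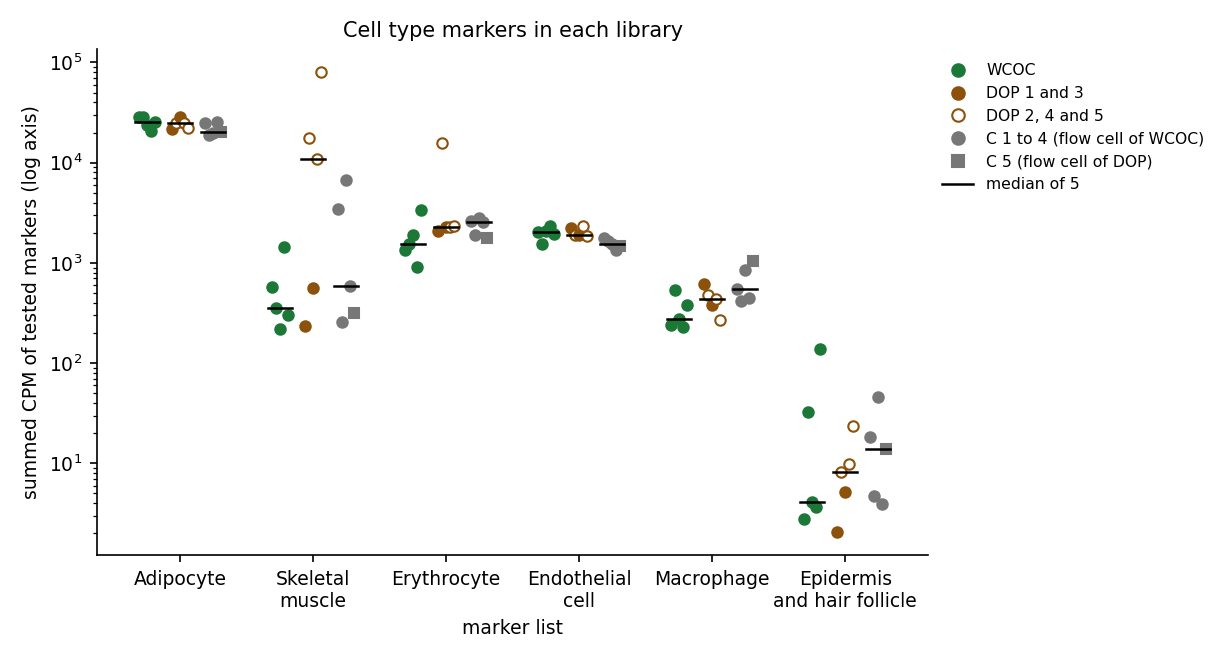
Summed CPM (log axis) of the tested markers of 6 cell types (horizontal axis), 1 point per library and a line at the median of each diet. Open points are DOP replicates 2, 4 and 5, which lie between 10835 and 79921 CPM for skeletal muscle while the adipocyte sums of all 15 libraries lie between 19049 and 28787 CPM.

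The clearest difference lay in cell division. Of 32 tested genes of the mitotic spindle and kinetochore, 27 fell in WCOC and none rose (5.11% of all tested genes fell). The list's median log2FC was -1.84. The values of 28 did not overlap between the diets and were lower in WCOC, against 4.77% of all tested genes. Of 25 tested genes of DNA replication, 14 fell and none rose, with a median of -1.03. Without the 3 muscle-rich libraries 16 spindle genes and 5 replication genes were called (0.472% of all tested genes were called lower) and the medians were -1.95 and -1.10. With the muscle covariate 27 and 14 were called, as in the fit without it (1.94% of all tested genes were called lower).

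TOP2A encodes the topoisomerase that untangles chromosomes before they separate (chr12:22001300-22028452; gene positions are those of RefSeq on Sscrofa11.1). Its level was 2.49, 7.04, 2.94, 2.73 and 5.04 CPM in WCOC replicates 1 to 5 and 26.5, 15.7, 20.3, 18.2 and 21.2 CPM in DOP replicates 1 to 5. All WCOC values were below all DOP values, and the highest was DOP replicate 1, which held little muscle RNA. It fell in WCOC (log2FC -2.33 ± 0.28, adjusted p = 0.000662), also without the 3 libraries (log2FC -2.54 ± 0.34, adjusted p = 0.00989). CENPF, a kinetochore protein made before mitosis (chr9:128948386-129012241), was at 1.21, 2.58, 1.18, 0.794 and 2.301 CPM in the WCOC libraries and at 11.3, 7.47, 7.902, 7.44 and 8.75 CPM in the DOP libraries (log2FC -2.41 ± 0.29, adjusted p = 0.000739). Cyclin B2, CCNB2 (chr1:112907047-112942218), which with CDK1 starts mitosis, was at 0.785, 1.05, 0.424, 0.953 and 0.797 CPM in WCOC against 4.18, 2.604, 3.12, 2.93 and 2.65 CPM in DOP (log2FC -1.95 ± 0.23, adjusted p = 0.000662). Neither gene had an overlap between the diets. CIT and PIMREG are no members of the list but belong to the 10 largest falls of the table, which were chosen among genes without overlap. CIT, the citron kinase of the cleavage furrow (chr14:33009828-33195985), had the lowest adjusted p of the genes described here, with 0.753, 1.497, 0.881, 1.08 and 1.27 CPM in WCOC and 7.51, 7.17, 5.28, 6.61 and 10.1 CPM in DOP (log2FC -2.74 ± 0.23, adjusted p = 8.78e-05). PIMREG, a gene of proliferating cells, was at 0.35998, 1.01, 0.261, 0.286 and 0.354 CPM in WCOC and at 4.298, 1.74, 3.02, 3.19 and 3.35 CPM in DOP (log2FC -2.78 ± 0.36, adjusted p = 0.000956).

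Among the replication genes E2F1, the transcription factor that switches on S phase genes (chr17:37178587-37190118), was at 1.54, 3.11, 2.61, 1.59 and 2.89 CPM in WCOC and at 12.9, 7.25, 10.001, 8.64 and 8.99 CPM in DOP (log2FC -2.03 ± 0.24, adjusted p = 0.000662). Thymidine kinase, TK1 (chr12:3785997-3794824), was at 1.47, 3.89, 1.89, 1.72 and 2.45 CPM in WCOC and at 10.8, 8.26, 7.04, 8.901 and 8.12 CPM in DOP (log2FC -1.92 ± 0.24, adjusted p = 0.000881). CLSPN, a checkpoint protein of the replication fork (chr6:91906325-91968070), was at 2.78, 3.11, 2.58, 2.45 and 3.36 CPM against 6.03, 5.89, 6.14, 5.33 and 5.72 CPM (log2FC -1.03 ± 0.15, adjusted p = 0.00163). In all 3 genes every WCOC pig was below every DOP pig, and all 3 stayed called without DOP replicates 2, 4 and 5. RRM1, the most abundant member, a subunit of ribonucleotide reductase, was at 41.6, 43.7, 49.6, 42.7 and 44.5 CPM in WCOC and at 50.5, 50.1, 56.98, 45.8 and 55.1 CPM in DOP (log2FC -0.22 ± 0.09, adjusted p = 0.124), which overlapped and did not pass. NUSAP1, the most abundant gene of the spindle list, was at 144, 131, 129, 132 and 135 CPM in WCOC and at 159, 197, 153, 179.8 and 370.4 CPM in DOP, highest in the muscle-rich replicate 5. It was called with all libraries (log2FC -0.66 ± 0.19, adjusted p = 0.0364) but not without the 3 (log2FC -0.22 ± 0.09, adjusted p = 0.292).

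**Figure D2:**
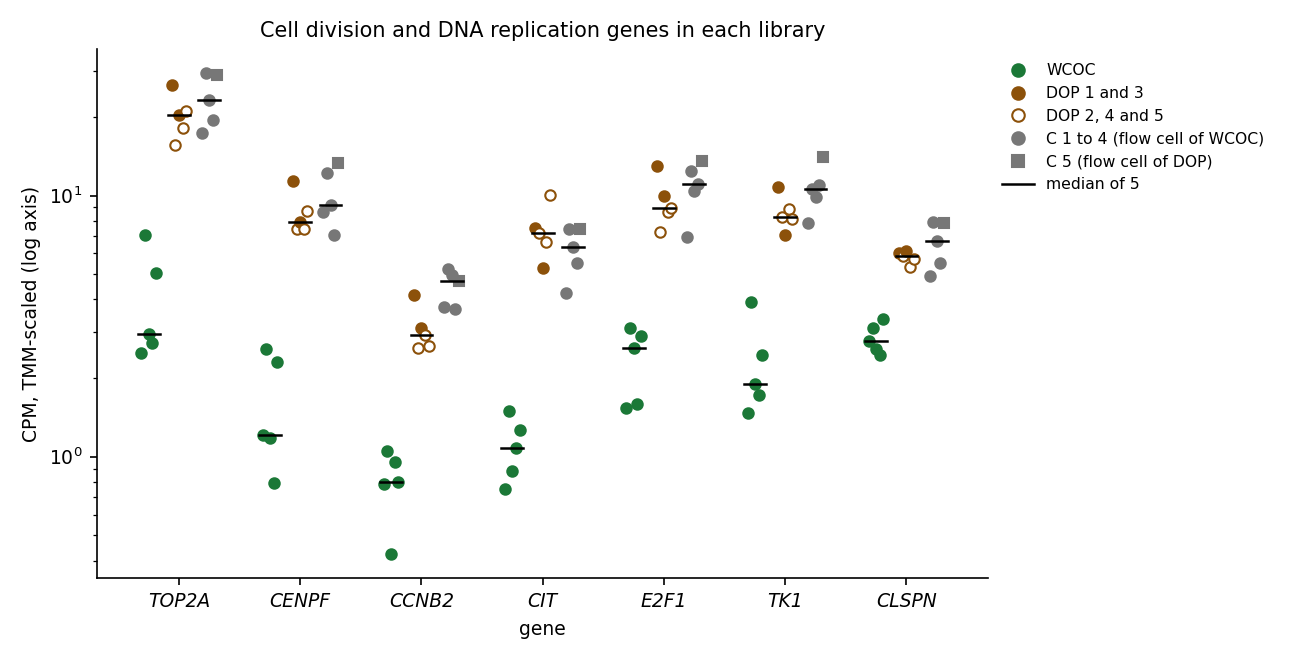
CPM (log axis) of 7 genes of cell division and DNA replication in each library, with a line at the median of 5; open points are the muscle-rich DOP replicates 2, 4 and 5 and the square is C replicate 5. In each gene the WCOC points lie below all DOP and all C points, as for TOP2A with 2.49 to 7.04 CPM in WCOC and 15.7 to 26.5 CPM in DOP.

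The controls were run on both flow cells, and the part of the flow cell in these differences was not tested beyond the values that follow. For 27 of the 27 called spindle genes, the 4 control libraries run on the flow cell of WCOC were all above all 5 WCOC values, and for 12 of the 14 called replication genes. Over all DEGs lower in WCOC this held for 35.2%. C replicate 5, on the flow cell of DOP, lay outside the range of the other 4 controls on the DOP side in 14 of the 32 spindle genes and on the WCOC side in none, and in 13 and 3 of the 25 replication genes. Over all tested genes the shares were 20.7% on the DOP side and 22.4% on the WCOC side. Set beside C in the same fit, the medians of the spindle list were -2.20 for WCOC and -0.26 for DOP, and those of the replication list -1.35 and -0.24; these contrasts share the 5 control libraries. With flow cell as a covariate, a term that rests on C replicate 5 alone, no list member was called and the medians were -1.30 and -0.70. C replicate 5 also differed in make-up from the other controls. Its macrophage markers summed to 1055 CPM (415 to 857 in the others) and its T and NK cell markers to 57.7 CPM (29.6 to 35.6). Its flow cell and its make-up therefore cannot be told apart, here and in the lists below.

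The 250 bases before the annotated start of 4 of these genes are shown because the genes fell together and promoters of mitotic genes are known for CCAAT boxes, bound by NF-Y, and for the cell cycle homology region (CHR), bound by the DREAM and MuvB complexes. Sequences are from RefSeq, Sscrofa11.1, 5' to 3' on the strand of the gene. Capitals mark CCAAT, the CHR letters TTTGAA or TTCGAA, and the E2F letters TTTCCCGC, TTTCGCGC, TTTGGCGC or TTTGCCGC, each searched on both strands.
TOP2A promoter, chr12:22001050-22001299, plus strand: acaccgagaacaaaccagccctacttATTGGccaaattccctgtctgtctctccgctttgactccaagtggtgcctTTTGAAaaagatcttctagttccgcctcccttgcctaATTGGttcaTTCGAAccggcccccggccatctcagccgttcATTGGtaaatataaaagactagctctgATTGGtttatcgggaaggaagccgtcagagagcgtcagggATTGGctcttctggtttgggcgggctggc
CENPF promoter, chr9:129012242-129012491, minus strand: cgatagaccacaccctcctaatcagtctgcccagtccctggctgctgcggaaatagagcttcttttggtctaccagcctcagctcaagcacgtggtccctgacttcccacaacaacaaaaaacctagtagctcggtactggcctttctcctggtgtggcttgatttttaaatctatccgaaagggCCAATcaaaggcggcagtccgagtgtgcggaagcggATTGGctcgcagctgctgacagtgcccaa
CIT promoter, chr14:33009578-33009827, plus strand: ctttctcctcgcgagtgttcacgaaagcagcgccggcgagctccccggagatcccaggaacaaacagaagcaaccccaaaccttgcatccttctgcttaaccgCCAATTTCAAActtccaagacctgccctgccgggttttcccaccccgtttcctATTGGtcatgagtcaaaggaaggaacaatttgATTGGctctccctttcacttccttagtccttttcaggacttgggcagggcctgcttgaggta
TK1 promoter, chr12:3785747-3785996, plus strand: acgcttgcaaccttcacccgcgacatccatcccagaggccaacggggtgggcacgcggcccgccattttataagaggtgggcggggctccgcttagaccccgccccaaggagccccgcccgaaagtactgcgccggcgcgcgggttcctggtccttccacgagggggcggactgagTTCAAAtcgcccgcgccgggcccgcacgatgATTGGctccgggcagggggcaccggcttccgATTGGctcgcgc
TOP2A held 5 CCAAT boxes and 2 CHR matches in this window, CIT 3 and 1, TK1 2 and 1, and CENPF 2 and none. In CIT a CCAAT box and the CHR match (TTCAAA, its reverse complement) lie end to end. No E2F letters were found in these 4 windows. CCAAT was present in 16 of the 27 called spindle genes (59.3%) and 7 of the 14 called replication genes (50%), and in 31.9% of the 19506 promoters searched. CHR letters were present in 9 of the 27 (33.3%) and 2 of the 14 (14.3%), against 13.9% of all promoters, and E2F letters in 3 and 2, against 2.82%. Over all 32 tested spindle genes, called or not, CCAAT was present in 56.25% and CHR letters in 37.5%. Over all 25 tested replication genes the shares were 48% and 24%. CHR letters were thus no more frequent in the called members than in their whole lists. A match describes the letters only.

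The genes that make fatty acids were lower in WCOC. Of 18 tested members of fatty acid synthesis 7 fell, against 5.11% of all tested genes (among them FASN, SLC25A1, ME1, ACLY, ACSS2 and ELOVL6) and none rose, with a median log2FC of -0.56. Fatty acid synthase, FASN (chr12:922405-937560), which builds palmitate, was at 6811, 15723, 18376, 6313 and 10640.4 CPM in WCOC replicates 1 to 5 and at 27339, 28641, 35528, 30625 and 20992 CPM in DOP replicates 1 to 5, so no WCOC pig reached the lowest DOP pig (log2FC -1.31 ± 0.33, adjusted p = 0.0223). SLC25A1, the carrier that takes citrate out of the mitochondrion for this pathway (chr14:50974616-51002970), was at 119.5, 222, 279, 129.6 and 210.2 CPM in WCOC and at 409, 521, 482, 506 and 359.9 CPM in DOP (log2FC -1.25 ± 0.27, adjusted p = 0.0116). The values of SLC25A1 did not overlap either, with WCOC replicates 1 and 4 the lowest, as in FASN. ACLY, which splits that citrate to acetyl-CoA, was at 871, 2172, 3613, 1916 and 2995 CPM against 5441, 5524, 5416, 4062 and 4094 CPM (log2FC -1.09 ± 0.32, adjusted p = 0.038), also without overlap.

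A source of the NADPH that the synthesis consumes was also lower. Malic enzyme, ME1 (chr1:82799878-82989895), was at 328, 559.9, 1006, 358 and 591 CPM in WCOC and at 1417, 1578, 1547, 1221 and 927 CPM in DOP (log2FC -1.23 ± 0.30, adjusted p = 0.0189). WCOC replicate 3 lay above DOP replicate 5, the lowest of its diet, and the other 4 WCOC pigs below all DOP pigs. The most abundant member, SCD, the desaturase that makes oleic from stearic acid, was at 16367, 34609, 41535, 15373 and 23339.8 CPM in WCOC and at 39995, 42137, 48099, 35024 and 35102 CPM in DOP; WCOC replicate 3 lay within the DOP range and the other 4 below it, and the difference did not pass (log2FC -0.61 ± 0.26, adjusted p = 0.146). FASN, ACLY and the other names given from the count of 7 were singled out after their values were seen.

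Without DOP replicates 2, 4 and 5 the median of the list was -0.73, but no member was called (FASN log2FC -1.45 ± 0.44, adjusted p = 0.188). In that fit 0.472% of all tested genes were called lower. With the muscle covariate 4 members were called lower, against 1.94% of all tested genes. Leaving out 1 library left 2 calls without WCOC replicate 1 or 4 and 4 without DOP replicate 1, 2, 3 or 5. For 6 of the 7 called genes the 4 controls on the flow cell of WCOC lay above all WCOC pigs (35.2% of all lower DEGs). C replicate 5 lay outside the other controls toward WCOC in 14 of the 18 members (22.4% of all tested genes), and toward DOP in 2. Beside C, the list's medians were -0.60 for WCOC and -0.05 for DOP.

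Some genes of the steps after synthesis were called (2.65% of all tested genes rose and 5.11% fell). In triglyceride assembly and glyceroneogenesis 1 of 14 members was called, AQP3, a channel for glycerol (chr10:33045374-33050285), at 219, 229.8, 121, 186 and 156 CPM in WCOC and 64.6, 46.4, 122, 89.2 and 44.2 CPM in DOP, where only WCOC replicate 3 and DOP replicate 3 met (log2FC 1.32 ± 0.29, adjusted p = 0.0129). In lipolysis and its receptors 2 of 17 rose and 1 fell. FFAR4, a receptor for long-chain fatty acids, was at 79.6, 89.2, 61.7, 78.2 and 68.4 CPM in WCOC and at 40.6, 52.7, 42.4, 47.2 and 45.4 CPM in DOP; all WCOC pigs were above all DOP pigs (log2FC 0.72 ± 0.10, adjusted p = 0.00147), and the call held without the 3 muscle-rich libraries (log2FC 0.85 ± 0.14, adjusted p = 0.0205). G0S2, an inhibitor of the triglyceride lipase of adipocytes, was at 42.02, 87.04, 49.7, 28.4 and 32.9 CPM against 14.98, 12.5, 20.8, 27.04 and 15.4 CPM, with no overlap (log2FC 1.404 ± 0.40, adjusted p = 0.0363). PDE4B, a phosphodiesterase that degrades cyclic AMP, was lower (log2FC -1.21 ± 0.35, adjusted p = 0.0388), with 58.05 CPM in DOP replicate 5 and 8.28 to 17.8 CPM in the other 9 libraries. Without DOP replicates 2, 4 and 5 none of AQP3 (log2FC 0.96 ± 0.34, adjusted p = 0.269), G0S2 (log2FC 1.41 ± 0.59, adjusted p = 0.345) and PDE4B (log2FC -0.43 ± 0.22, adjusted p = 0.477) was called, though the log2FC of G0S2 was near that with all libraries.

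Cholesterol synthesis was split, with calls in both directions (2.65% of all tested genes rose and 5.11% fell). SQLE, which makes squalene epoxide (chr4:14669789-14700152), was the member called higher of 16, at 29.1, 48.2, 47.01, 49.996 and 53.4 CPM in WCOC and 27.8, 20.2, 29.9, 29.6 and 22.9 CPM in DOP (log2FC 0.804 ± 0.15, adjusted p = 0.00542). WCOC replicate 1 lay among the DOP pigs and the other WCOC pigs above them. The C libraries had 55.2, 57.9, 53.9, 46.1 and 49.7 CPM. ACAT2, which joins acetyl-CoA units at the start of the pathway, was at 28.2, 42.2, 45.9, 31.9 and 47.7 CPM in WCOC and at 51.2, 54.6, 75.3, 57.6 and 57.4 CPM in DOP, with no overlap (log2FC -0.596 ± 0.16, adjusted p = 0.0267). DHCR7, at its last step, had 10.2, 21.9, 26.4, 17.5 and 21.5 CPM against 22.2, 33.1, 43.95, 41.6 and 34.2 CPM, with an overlap (log2FC -0.85 ± 0.24, adjusted p = 0.0352). The list's median was -0.13, near that of all genes, and none of the 17 genes of cholesterol uptake and control was called.

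Mitochondrial genes were lower in WCOC by small amounts in many members. In fatty acid oxidation 7 of 24 fell, in the tricarboxylic acid cycle 8 of 22, and of the nuclear genes of the respiratory chain 20 of 51, against 5.11% of all tested genes; no member of these lists rose. Their medians were -0.52, -0.51 and -0.52, and 24, 21 and 50 members had a log2FC below 0 (49.9% of all genes). Of the 13 tested genes of the mitochondrial genome 2 fell (COX1 and ND6), with a median of -0.43. By comparison the 44 cytosolic ribosomal protein genes had a median of -0.07 and 0 calls by edgeR, with 3 members lower at an unadjusted p under 0.05.

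PDHB, a subunit of the pyruvate dehydrogenase that feeds the cycle (chr13:40161519-40167502), had the largest drop of the cycle list, from 521, 658, 369, 708 and 495 CPM in DOP replicates 1 to 5 to 104, 227, 207, 115 and 245 CPM in WCOC replicates 1 to 5 (log2FC -1.62 ± 0.26, adjusted p = 0.0028). No WCOC pig reached a DOP pig. Fumarase, FH, was at 73.99, 78.2, 76.3, 64.1 and 68.5 CPM in WCOC and at 87.1, 106, 122, 107 and 137 CPM in DOP (log2FC -0.63 ± 0.11, adjusted p = 0.00377). In β-oxidation HADHB, a subunit of the mitochondrial trifunctional protein (chr3:112712894-112753121), was at 138, 161, 138, 109.6 and 124 CPM against 169, 211, 232, 225 and 245 CPM (log2FC -0.69 ± 0.11, adjusted p = 0.0028). HADHB did not overlap, and WCOC replicate 4 was its lowest pig. ACADM, the medium-chain dehydrogenase, was at 96.05, 97.3, 96.1, 83.5 and 89.2 CPM in WCOC and at 114, 124, 143, 132 and 183 CPM in DOP, without overlap (log2FC -0.59 ± 0.12, adjusted p = 0.00703).

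ATP5F1A and ATP5PB are subunits of ATP synthase and UQCRFS1 is the iron-sulfur protein of complex III. ATP5F1A was at 319, 461, 469, 289 and 371 CPM in WCOC and at 527, 647, 735, 695 and 901 CPM in DOP (log2FC -0.88 ± 0.16, adjusted p = 0.00503). ATP5PB was at 96.7, 118, 112, 89.99 and 98.4 CPM and 141, 161, 178, 156 and 207 CPM (log2FC -0.71 ± 0.11, adjusted p = 0.0025). UQCRFS1 was at 111, 136, 128, 100.3 and 125 CPM and 163, 209, 195, 194 and 269 CPM (log2FC -0.78 ± 0.13, adjusted p = 0.00302). In each of the 3 all WCOC pigs were below all DOP pigs, and the highest DOP pig was replicate 5, the one with the most muscle RNA. COX1, encoded in the mitochondrion itself, was at 14695, 24916, 21151, 12645 and 17002 CPM in WCOC and at 29148, 38945, 35361, 37019 and 33644 CPM in DOP (log2FC -0.95 ± 0.22, adjusted p = 0.0145). It did not overlap either, and here DOP replicate 5 was not the highest.

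These lists were also read without the muscle-rich libraries and with the muscle covariate. Without DOP replicates 2, 4 and 5 no member of oxidation, cycle or nuclear respiratory chain was called, where 0.472% of all tested genes were called lower. The medians stayed at -0.44, -0.42 and -0.38 in that fit, which holds 2 DOP libraries. With the muscle covariate 4, 3 and 5 members were called, against 1.94% of all tested genes. PDHB was not called without the 3 libraries (log2FC -1.32 ± 0.32, adjusted p = 0.101). C replicate 5 lay outside the other controls toward WCOC in 38 of the 51 respiratory chain genes and toward DOP in 0. For the 22 cycle genes these counts were 16 and 1, and for the 24 oxidation genes 11 and 5. Over all tested genes the shares were 22.4% and 20.7%. The 4 controls on the flow cell of WCOC lay above all WCOC pigs in 14 of the 20 called respiratory chain genes. This held for 6 of the 8 called cycle genes and 4 of the 7 called oxidation genes (35.2% of all lower DEGs). Without WCOC replicate 1, WCOC replicate 4 or DOP replicate 5 alone, 13, 13 and 11 respiratory chain genes and 4, 5 and 5 cycle genes were called, and 4 oxidation genes without WCOC replicate 4 or 5. The part of muscle RNA and of the flow cells in these differences was not tested beyond these values.

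**Figure D3:**
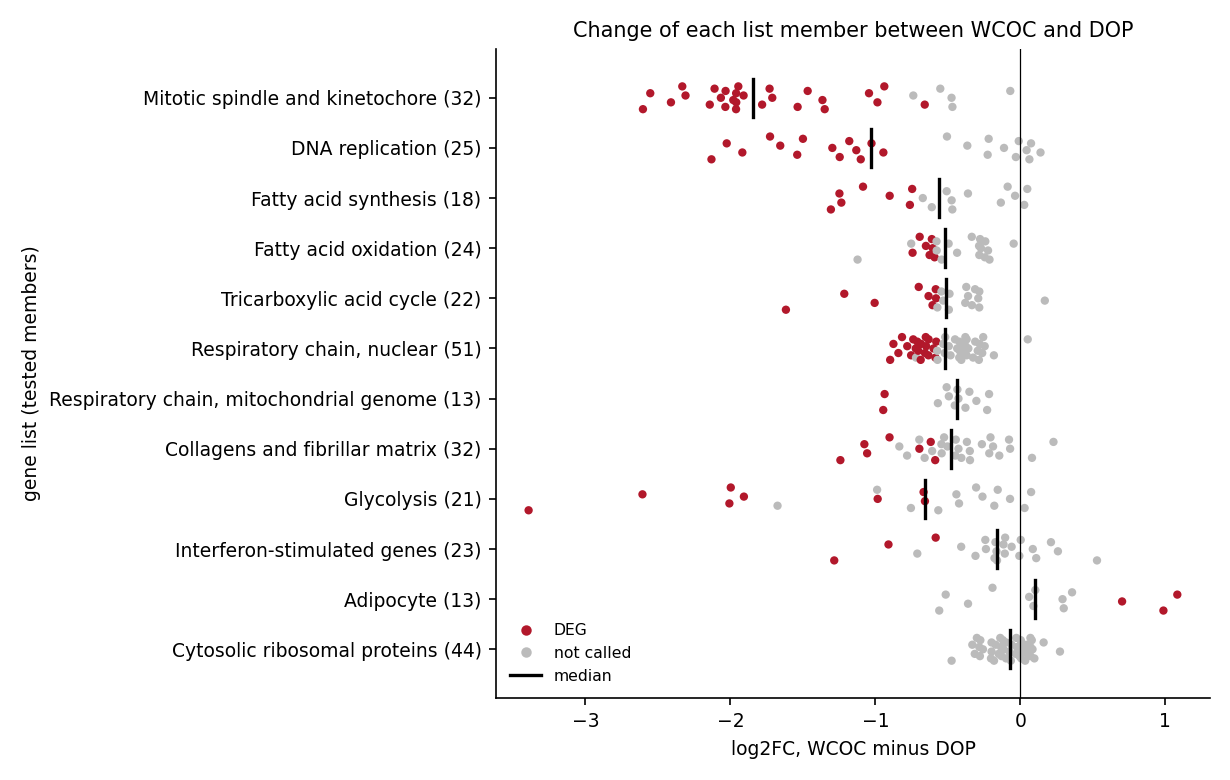
log2FC (WCOC minus DOP, horizontal axis) of each tested member of 12 gene lists, with the number of members in brackets; DEGs are red, other members grey, and the line is the list's median. The spindle list sits lowest with a median of -1.84, the metabolic lists between -0.66 and -0.43, and the ribosomal proteins at -0.07.

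**Figure D4:**
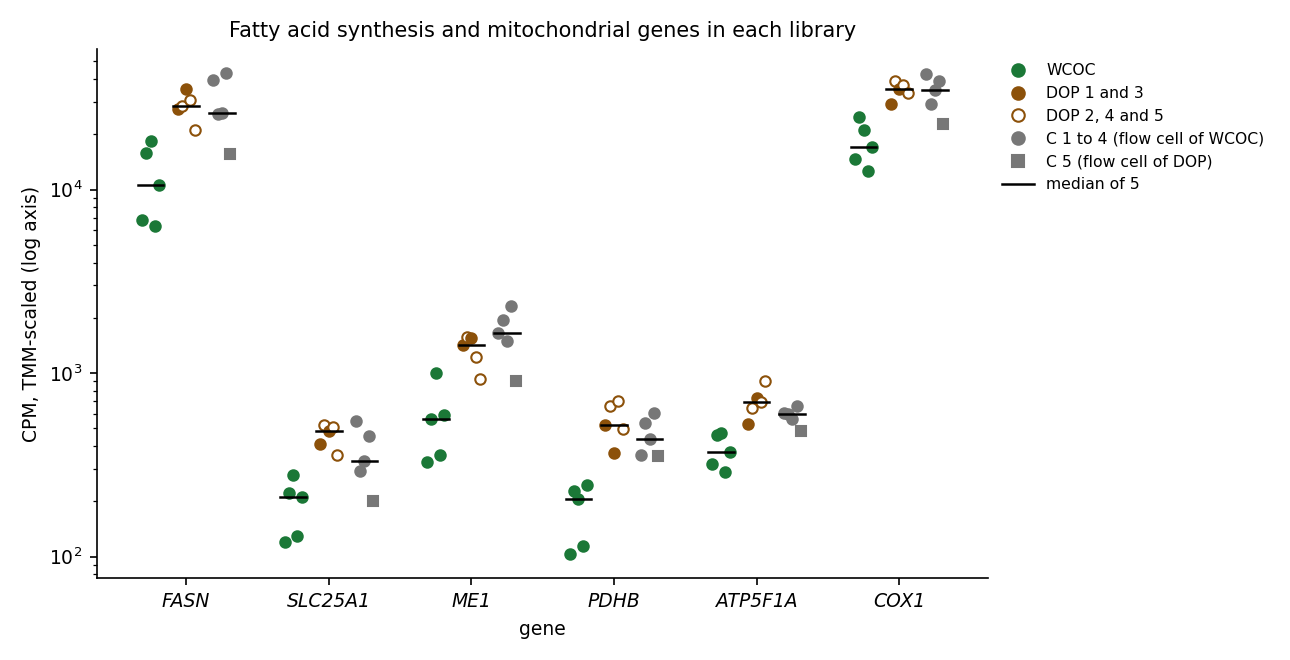
CPM (log axis) of 6 genes of fatty acid synthesis and the mitochondrion in each library, with a line at the median of 5. WCOC points lie below DOP points except for 1 WCOC pig in ME1, and the square of C replicate 5 lies lowest of the controls in each gene shown.

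Some genes of glycolysis, glycogen and AMPK signalling were lower in WCOC, and those described here were highest in DOP replicate 5, the library with the most muscle RNA. In glycolysis 8 of 21 members fell, in glycogen metabolism 3 of 19 and in AMPK, PGC-1 and insulin signalling 3 of 21. None rose, and 5.11% of all tested genes fell. The medians were -0.66, -0.42 and -0.02. LDHA, lactate dehydrogenase A, was at 88.6, 124, 106, 112 and 101 CPM in WCOC and at 141, 327, 144, 389 and 2231 CPM in DOP (log2FC -2.61 ± 0.65, adjusted p = 0.0213), and PKM, pyruvate kinase, at 224, 312, 254, 260.05 and 343 CPM and 367, 696, 475, 816 and 3204 CPM (log2FC -1.997 ± 0.47, adjusted p = 0.0166). Neither gene overlapped, and DOP replicates 1 and 3 were the lowest of their diet in each. PRKAA2, the AMPK catalytic subunit that muscle expresses, was at 10.2, 10.4, 11.2, 10.04 and 10.1 CPM in WCOC and at 11.4, 46.98, 11.4, 45.97 and 213 CPM in DOP (log2FC -2.66 ± 0.65, adjusted p = 0.0189), so that DOP replicates 1 and 3 exceeded the highest WCOC pig by little. PRKAG3, an AMPK subunit of muscle (log2FC -5.31 ± 1.55, adjusted p = 0.0378), PPARGC1A, the coactivator PGC-1α (log2FC -2.29 ± 0.70, adjusted p = 0.0438), PYGM, muscle glycogen phosphorylase (log2FC -2.68 ± 0.75, adjusted p = 0.0337), and GYG1, glycogenin (log2FC -1.58 ± 0.41, adjusted p = 0.0254) were also called and also highest in DOP replicate 5. Without the 3 libraries none of these was called, and the log2FC of PRKAA2 was -0.14, of PYGM 0.21 and of PRKAG3 0.86.

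PFKFB1, an enzyme of the fructose-2,6-bisphosphate switch of glycolysis (chrX:47771751-47859079), was at 9.62, 13.5, 17.5, 4.19 and 6.58 CPM in WCOC and at 27.8, 33.1, 41.3, 30.98 and 73.2 CPM in DOP (log2FC -2.01 ± 0.36, adjusted p = 0.00475). Its lowest DOP pig, replicate 1, which held little muscle RNA, was above the highest WCOC pig. It was also called with the muscle covariate, but not without the 3 libraries (log2FC -1.76 ± 0.41, adjusted p = 0.0864).

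Of the 10 largest rises in WCOC, selected among DEGs with a mean of at least 1 CPM and no overlap, TF and ATP8A2 were also called without the muscle-rich libraries, where the other 8 were not, with log2FC of 6.58 for FRMD1, 2.64 for CAMK1G, 2.01 for FGF18, 1.94 for RNF207, 1.68 for PLCH1, 1.59 for TLL2, 1.396 for RIMS3 and 1.22 for C6orf132. TF, the gene of transferrin, the iron carrier of plasma, was at 9.78, 5.84, 6.82, 11.9 and 11.2 CPM in WCOC and at 1.16, 1.51, 3.02, 1.88 and 1.32 CPM in DOP (log2FC 2.35 ± 0.29, adjusted p = 0.000739; without the 3, log2FC 2.098 ± 0.42, adjusted p = 0.0494). ATP8A2, a phospholipid flippase, was at 28.4, 25.8, 19.03, 17.7 and 18.1 CPM in WCOC and at 5.503, 4.302, 6.88, 3.61 and 3.17 CPM in DOP (log2FC 2.21 ± 0.24, adjusted p = 0.000395; without the 3, log2FC 1.802 ± 0.29, adjusted p = 0.0205). For both, the controls lay nearer to DOP, with 2.45, 1.92, 2.01, 3.51 and 2.39 CPM of TF and 6.28, 8.93, 5.89, 9.19 and 5.103 CPM of ATP8A2 in C replicates 1 to 5. PLCH1, a phospholipase C (chr13:95402015-95644647), was at 14.3, 17.4, 11.3, 14.2 and 12.3 CPM in WCOC and at 3.695, 2.38, 4.91, 4.13 and 2.13 CPM in DOP (log2FC 2.01 ± 0.31, adjusted p = 0.00216). FGF18, a fibroblast growth factor (chr16:52724867-52760246), was at 11.8, 27.6, 11.5, 37.8 and 18.8 CPM and 6.87, 3.36, 3.77, 6.35 and 6.62 CPM (log2FC 1.996 ± 0.36, adjusted p = 0.00475). FRMD1 had the largest rise; it was at 6.25, 1.31, 0.457, 15.7 and 3.27 CPM in WCOC, while no DOP library held more than 2 counts, so WCOC was at least 49.7-fold higher against a floor of 3 counts per library (adjusted p = 0.00163).

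The other members of the 10 were RNF207 (log2FC 1.96 ± 0.29, adjusted p = 0.00194), TLL2, a metalloprotease of the tolloid family (log2FC 1.78 ± 0.37, adjusted p = 0.00988), C6orf132 (log2FC 1.98 ± 0.46, adjusted p = 0.0162), CAMK1G, a calmodulin-dependent kinase (log2FC 2.66 ± 0.68, adjusted p = 0.0229), and RIMS3, a gene of vesicle release (log2FC 2.197 ± 0.63, adjusted p = 0.0364). They did not overlap between the diets by the rule that chose them. RIMS3 stayed called in 3 of the 10 fits that left out 1 library and CAMK1G in 7, and CAMK1G was highest, at 16.1 CPM, in WCOC replicate 2. The remaining 8 of the 10 rises stayed called in every such fit.

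Leptin and 2 other adipocyte genes were higher in WCOC. Leptin, LEP (chr18:20106867-20124071), the satiety hormone secreted by fat, was at 582, 909, 609, 745 and 762 CPM in WCOC and at 486, 289.6, 395, 358 and 174 CPM in DOP. The highest DOP pig, replicate 1, was below the lowest WCOC pig, and the lowest was the muscle-rich replicate 5 (log2FC 1.08 ± 0.24, adjusted p = 0.014). It was not called without the 3 libraries (log2FC 0.703 ± 0.26, adjusted p = 0.275), and beside C the log2FC was 0.49 in WCOC and -0.59 in DOP, neither of which passed. PLIN4, which coats lipid droplets, was at 2967, 4042, 2114, 2566 and 2366 CPM in WCOC and at 1675, 1630.1, 2096, 1706 and 1532 CPM in DOP (log2FC 0.702 ± 0.18, adjusted p = 0.0248), again without overlap. ADIRF, a regulator of adipogenesis, was at 249, 333, 175, 229.8 and 157 CPM against 85.998, 116, 189, 79.5 and 107 CPM, with DOP replicate 3 among the WCOC pigs (log2FC 0.99 ± 0.25, adjusted p = 0.021). LEP, PLIN4 and ADIRF were the called members of the 13 adipocyte markers (2.65% of all tested genes rose), and the median of the 13 was 0.10. In the adipokine list the leptin receptor LEPR was higher too (log2FC 1.59 ± 0.50, adjusted p = 0.04999) but was called in 1 of the 10 fits that left out a library, and ANGPTL4, an inhibitor of lipoprotein lipase, lower, at 47.1, 36.2, 25.6, 35.4 and 36.6 CPM in WCOC and 54.6, 51.96, 53.5, 76.7 and 47.4 CPM in DOP, without overlap (log2FC -0.65 ± 0.18, adjusted p = 0.0303). Of the 16 members of that list 13 were below 0 and the median was -0.30.

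**Figure D5:**
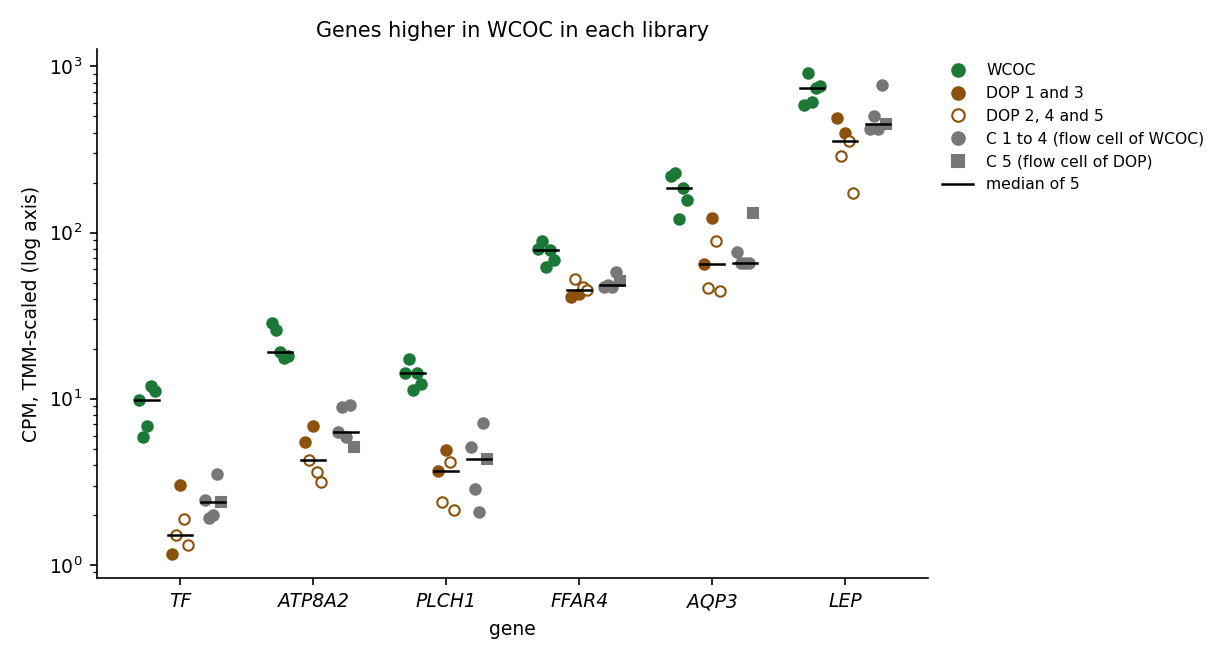
CPM (log axis) of 6 genes higher in WCOC in each library, with a line at the median of 5; open points are DOP replicates 2, 4 and 5. TF, ATP8A2, PLCH1, FFAR4 and LEP do not overlap between WCOC and DOP, while in AQP3 DOP replicate 3 reaches the lowest WCOC pig.

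Some matrix and progenitor genes were lower in WCOC. Of 32 collagens and matrix genes 7 fell (5.11% of all tested genes) and none rose, with a median of -0.48. Without the muscle-rich libraries the median was -0.56 and edgeR called 0 of them, where 0.472% of all tested genes were called lower. With all libraries DESeq2 called 10 lower and edgeR 18 at an unadjusted p under 0.05 (15.4% of all tested genes were lower at that p). Without WCOC replicate 1, 4 or 5 the calls were 3, 2 and 4, and 4 without DOP replicate 2 or 4. ASPN, asporin, was at 21.8, 27.4, 29.5, 26.3 and 38.5 CPM in WCOC and at 87.8, 58.5, 46.4, 63.3 and 46.6 CPM in DOP, without overlap (log2FC -1.08 ± 0.22, adjusted p = 0.00965). LUM, lumican, a proteoglycan that fibroblasts secrete, was at 119, 289, 135, 164 and 173 CPM and 489, 350.3, 286, 435 and 271 CPM, where WCOC replicate 2 lay within the DOP range (log2FC -1.06 ± 0.23, adjusted p = 0.0124). COL15A1, a basement membrane collagen (chr1:240718128-240829188), was at 743, 849, 967, 684 and 825 CPM and 1200.4, 1226, 1188, 1368 and 1128 CPM, without overlap (log2FC -0.59 ± 0.11, adjusted p = 0.00544). PDGFRA, the receptor that marks adipocyte progenitors (chr8:40966568-41021440), was at 39.4, 57.2, 49.5, 62.5 and 58.5 CPM and 98.4, 87.1, 66.1, 84.3 and 63.6 CPM, also without overlap (log2FC -0.58 ± 0.15, adjusted p = 0.0254). PDGFRA and LUM were the 2 called of 9 tested markers of fibroblasts and progenitors, whose median was -0.26, and neither was called without the muscle-rich libraries.

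Among immune genes, some lists held calls and others none (2.65% of all tested genes rose and 5.11% fell). Of 18 macrophage markers CD163, a scavenger receptor for haemoglobin, was the only one, at 7.89, 24.1, 12.01, 9.08 and 14.2 CPM in WCOC and 48.8, 40.2, 27.97, 27.3 and 20.8 CPM in DOP, with WCOC replicate 2 inside the DOP range (log2FC -1.296 ± 0.33, adjusted p = 0.0229), while CSF1R, the receptor that defines the lineage, overlapped (log2FC -0.304 ± 0.33, adjusted p = 0.594). No member was called among the 14 genes of lipid-associated macrophages, 13 of T and NK cells, 4 of B cells, 9 of MHC class II, 16 of complement and 18 of toll-like receptors by edgeR. At an unadjusted p under 0.05 these lists held 4, 0, 1, 0, 8 and 3 members, against 28.1% of all tested genes. SPP1, osteopontin, was at 27.3, 79.03, 15.5, 51.5 and 20.5 CPM in WCOC and at 12.9, 4.08, 8.15, 11.2 and 2.44 CPM in DOP with no overlap but did not pass (log2FC 2.32 ± 0.75, adjusted p = 0.0544), and C held 45.9, 82.5, 483, 105 and 746 CPM. Of 23 interferon-stimulated genes 3 fell, led by GBP1, a guanylate-binding protein, at 42.8, 41.6, 32.8, 40.6 and 51.4 CPM in WCOC and 85.8, 124, 122, 124 and 53.6 CPM in DOP without overlap (log2FC -1.28 ± 0.27, adjusted p = 0.00981), with the antiviral genes BST2 (log2FC -0.58 ± 0.16, adjusted p = 0.0298) and MX2 (log2FC -0.91 ± 0.28, adjusted p = 0.049).

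Of 24 chemokine and cytokine genes 1 rose and 3 fell, against 2.65% and 5.11% of all tested genes. IL13RA2, a decoy receptor for interleukin-13 (chrX:94402665-94455609), was at 6.81, 5.32, 4.44, 4.89 and 3.42 CPM in WCOC and at 11.3, 12.8, 21.98, 16.2 and 10.3 CPM in DOP, with no overlap and a call also without the 3 muscle-rich libraries (log2FC -1.55 ± 0.27, adjusted p = 0.00412; without the 3, log2FC -1.75 ± 0.34, adjusted p = 0.046). Its control libraries had 5.297, 4.14, 1.94, 3.08 and 2.92 CPM, all below DOP. CCL26, the chemokine eotaxin-3 (chr3:10381306-10385677), was at 9.95, 11.3, 10.9, 11.5 and 8.41 CPM in WCOC and at 5.54, 2.64, 6.54, 3.53 and 4.01 CPM in DOP, without overlap (log2FC 1.22 ± 0.25, adjusted p = 0.00801). CXCL14, a chemokine (log2FC -1.38 ± 0.34, adjusted p = 0.0209), and IL1R2, a decoy receptor for interleukin-1 (log2FC -1.73 ± 0.50, adjusted p = 0.0362), were lower. HDC, the histidine decarboxylase of mast cells, was at 0.491, 0.337, 1.57, 0.572 and 0.974 CPM in WCOC and at 3.53, 3.81, 1.14, 1.95 and 2.06 CPM in DOP, with WCOC replicate 3 inside the DOP range (log2FC -1.65 ± 0.39, adjusted p = 0.0171).

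Glucocorticoid-responsive and clock genes differed in both directions (2.65% of all tested genes rose and 5.11% fell). Of 12 genes that respond to glucocorticoids 5 fell and 1 rose, with a median of -0.71. With the muscle covariate 1 of them fell and 1 rose (1.94% and 1.06% of all tested genes). Without the 3 muscle-rich libraries none was called (0.517% of all tested genes were). FKBP5, a co-chaperone of the glucocorticoid receptor (chr7:31441764-31550704), was at 57.04, 58.6, 61.2, 45.1 and 49.8 CPM in WCOC and at 83.1, 157, 114, 88.1 and 92.6 CPM in DOP, without overlap (log2FC -0.98 ± 0.17, adjusted p = 0.00413; without the 3, log2FC -0.87 ± 0.18, adjusted p = 0.0525). The zinc finger gene ZBTB16 (log2FC -0.98 ± 0.30, adjusted p = 0.0438), CEBPD, an early factor of adipogenesis (log2FC -0.799 ± 0.20, adjusted p = 0.0207), and the clock gene PER1 (log2FC -0.77 ± 0.16, adjusted p = 0.0101) were lower, whereas HSD11B1, the enzyme that regenerates cortisol inside the cell (chr9:133231451-133278396), was higher, at 39.9, 38.4, 36.5, 33.4 and 25.8 CPM in WCOC and 16.3, 16.3, 24.1, 20.2 and 20.8 CPM in DOP without overlap (log2FC 0.83 ± 0.17, adjusted p = 0.00824). In the circadian clock, 2 of 17 rose and 3 fell. NFIL3, a repressor of the output loop, was at 51.9, 38.8, 55.04, 58.4 and 45.9 CPM in WCOC and 31.01, 30.2, 27.8, 32.1 and 21.2 CPM in DOP (log2FC 0.81 ± 0.13, adjusted p = 0.0028), and BMAL1, of the activating arm, at 20.2, 22.2, 36.8, 23.9 and 27.6 CPM and 13.2, 11.2, 20.1, 13.3 and 13.1 CPM (log2FC 0.88 ± 0.20, adjusted p = 0.0136). Neither overlapped, while NR1D1 (log2FC -1.11 ± 0.22, adjusted p = 0.00757) and NR1D2 (log2FC -1.07 ± 0.21, adjusted p = 0.00653), repressors of BMAL1, were lower. The hour of each biopsy is not given in the sources used here.

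In stress and detoxification lists some members were called (2.65% of all tested genes rose and 5.11% fell). Of 32 chaperones 3 fell: HSPE1, the mitochondrial chaperonin, at 66.9, 96.2, 89.4, 61.6 and 85.8 CPM in WCOC and 123, 137, 132, 155 and 121 CPM in DOP (log2FC -0.74 ± 0.13, adjusted p = 0.00392), HSPB1 (log2FC -1.13 ± 0.26, adjusted p = 0.0143) and HSPB8 (log2FC -4.56 ± 1.23, adjusted p = 0.0294), small heat shock proteins, the last with 198 CPM in DOP replicate 5 and 1.16 CPM in DOP replicate 1. Of 29 NADPH oxidase and antioxidant genes 4 fell and 1 rose. PRDX3, the mitochondrial peroxiredoxin, was at 244, 324, 291, 153 and 272 CPM in WCOC and at 421, 481, 489.6, 469 and 459.6 CPM in DOP (log2FC -0.85 ± 0.16, adjusted p = 0.0062). SOD2, the mitochondrial superoxide dismutase, was lower too (log2FC -0.71 ± 0.14, adjusted p = 0.00764), as were DUOX2, an oxidase that makes hydrogen peroxide (log2FC -0.93 ± 0.21, adjusted p = 0.015), and GPX7, a peroxidase (log2FC -0.61 ± 0.16, adjusted p = 0.0294). NOX5, an oxidase that makes superoxide, was higher at 11.6, 7.04, 12.6, 10.6 and 13.2 CPM in WCOC against 3.33, 2.08, 5.62, 3.79 and 5.54 CPM in DOP (log2FC 1.43 ± 0.29, adjusted p = 0.00871). Values of PRDX3, SOD2, DUOX2 and NOX5 did not overlap.

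Of 16 genes of the aryl hydrocarbon receptor and of xenobiotic enzymes 2 rose and 3 fell, against 2.65% and 5.11% of all tested genes. CYP1B1, a target of the receptor, was lower, at 3.44, 3.74, 3.49, 2.89 and 4.07 CPM in WCOC and 7.19, 11.5, 9.01, 8.83 and 7.32 CPM in DOP, without overlap (log2FC -1.31 ± 0.27, adjusted p = 0.00968), with MGST1, a glutathione transferase (log2FC -0.63 ± 0.17, adjusted p = 0.03001), and ALDH2, an aldehyde dehydrogenase (log2FC -0.88 ± 0.24, adjusted p = 0.0317). CYP1A1, another target of the receptor, was higher, at 6.38, 12.5, 8.55, 5.46 and 7.55 CPM and 3.57, 1.62, 5.53, 2.74 and 4.32 CPM with an overlap (log2FC 1.18 ± 0.36, adjusted p = 0.0441), and so was CYP2S1 (log2FC 0.81 ± 0.17, adjusted p = 0.011). Of 10 tested thermogenic and brown fat genes 1 rose and 3 fell, and the list's median was -0.47. PRDM16, a regulator of brown fat, was higher (log2FC 0.93 ± 0.26, adjusted p = 0.0333; without the 3, log2FC 0.75 ± 0.32, adjusted p = 0.357). Its call held in 4 of the 10 fits that left out a library. Lower were PPARGC1A, described above, and ATP2A2 (log2FC -1.28 ± 0.35, adjusted p = 0.0289) and COX7A1 (log2FC -1.06 ± 0.31, adjusted p = 0.0365), which muscle also expresses. None of these genes was called without the muscle-rich libraries or with the muscle covariate. Of 35 positional HOX and limb genes, which hold the body region of a biopsy, 1 was called (HOXC10, log2FC -0.76 ± 0.24, adjusted p = 0.0496) and the median was 0.06.

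Vessel and lysosome genes were mostly not called (7.76% of all tested genes were DEGs). Of 22 angiogenic and hypoxia genes ANGPTL4 was lower and NDRG1, a gene induced by hypoxia, higher, at 53.4, 63.004, 62.6, 80.3 and 54.02 CPM in WCOC and 51.1, 26.04, 37.3, 43.8 and 30.7 CPM in DOP without overlap (log2FC 0.73 ± 0.23, adjusted p = 0.0499), a call that held in 1 of the 10 fits that left out a library. Of 35 lysosome genes 1 fell, SMPD1, the acid sphingomyelinase, at 53.3, 71.9, 73.4, 48.5 and 82.2 CPM in WCOC and 95.5, 106, 114, 123 and 81.6 CPM in DOP, where WCOC replicate 5 overlapped (log2FC -0.66 ± 0.20, adjusted p = 0.0454). Of 11 smooth muscle and pericyte markers DES was called, which skeletal muscle also expresses, and of 6 mast cell markers HDC. No member was called by edgeR among 13 endothelial markers, 5 erythrocyte markers and 26 immediate early genes, which held 3, 2 and 7 members at an unadjusted p under 0.05 (28.1% of all tested genes).

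Of the 10 largest falls, selected by the same rule as the rises, PRND, PIMREG and CIT were also called without the muscle-rich libraries. PRND, which encodes doppel, a relative of the prion protein (chr17:13729715-13735485), was at 0.196, 0.187, 0.555, 0.0953 and 0.266 CPM in WCOC and at 4.82, 4.15, 1.27, 1.61 and 3.696 CPM in DOP, and at 0.245, 0.384, 0.3504, 0.0779 and 0.0331 CPM in C (log2FC -3.55 ± 0.56, adjusted p = 0.0025; without the 3, log2FC -3.53 ± 0.68, adjusted p = 0.0442). DOP was thus above both other diets in every pig. MALRD1 fell as well (log2FC -2.802 ± 0.66, adjusted p = 0.0162). MAFA, POPDC3, NKAIN1, ACSM5 and FAM43B were highest in DOP replicate 5, and none was called with the muscle covariate. POPDC3, of a family expressed in muscle, was at 0.35998, 0.524, 0.261, 0.858 and 0.295 CPM in WCOC and at 0.884, 3.77, 1.17, 3.83 and 23.3 CPM in DOP (log2FC -3.83 ± 0.87, adjusted p = 0.0143). MAFA had 0.185 to 15.1 CPM in DOP and no more than 2 counts in a WCOC library, at least 42.4-fold lower in mean level against the floor, a bound that DOP replicate 5 largely set. Without DOP replicates 2, 4 and 5 its log2FC was -1.94 and it was not called.

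Over all genes, flow cell as a covariate left 1 DEG, BDKRB2, the bradykinin receptor, with 2073 genes under an unadjusted p of 0.05, and raised the median standard error of log2FC from 0.153 to 0.307. The term for the flow cell itself called 1 gene, again BDKRB2, and 822 at an unadjusted p under 0.05. BDKRB2 was at 6.81, 7.04, 5.78, 7.401 and 7.88 CPM in WCOC, 4.58, 3.62, 3.46, 3.76 and 4.15 CPM in DOP and 4.95, 4.83, 5.96, 3.51 and 16.5 CPM in C, where C replicate 5 was the highest of all, and it was not a DEG without the covariate (log2FC 0.84 ± 0.33, adjusted p = 0.107). For 268 of the 762 DEGs lower in WCOC (35.2%) all 4 controls on the flow cell of WCOC lay above all WCOC pigs, and for 150 of the 396 higher DEGs (37.9%) they lay below.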

How the data were processed

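Paired reads were aligned by the authors with HISAT2 to Sscrofa11.1 and tallied per Ensembl gene with HTSeq, and raw counts were deposited as 1 file per library. The strand setting of the counting and the tool versions are not given in the sources used here, so counts of overlapping, antisense or near-identical genes are uncertain. Summary lines that name no gene (23.4 to 32.8% of a library) were left out. Gene symbols and positions came from RefSeq, Sscrofa11.1, and 877 of 1043 listed symbols were found in the files.

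Groups followed the diet label. Genes were filtered by diet with filterByExpr of edgeR 4.0.16 (R 4.3.3), scaled by TMM and fitted with its quasi-likelihood test over all 15 libraries, adjusted over the whole table by Benjamini and Hochberg; ± is the SE. WCOC and DOP libraries held 24601925 to 34745218 counts on genes, and intervals cover counting error and the spread between pigs, 5 per diet. Fits with DESeq2 1.42.0, limma 3.58.1 and other settings were alternatives, and the scripts were tested on simulated data. Named were the 10 largest rises and falls among DEGs with a mean of at least 1 CPM and no overlap and, per list, the most abundant member and up to 3 members of lowest p. Of the latter the text gives those called and a few others. LEPR, FASN, ACLY, ACSS2, ELOVL6, G0S2, PDE4B, BMAL1, NR1D1, CEBPD, CXCL14, IL1R2, GPX7, DUOX2, ALDH2, HSPB8, CYP1A1 and BDKRB2 were added after their values were seen. The comparison, lists and members were chosen with earlier results of these data known, and the fit without DOP replicates 2, 4 and 5 was added after seeing the data. A few genes that the rule names are not reported here.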

Additional observations from a re-analysis of the deposited data

Results flagged for a closer look

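In 38 of 246 groups of 5 libraries (15.45%) the highest or lowest library lay apart from the others by Dixon's criterion. Normally distributed values would meet it in about 1 of 20 groups. The values were CPM without logarithm, of genes partly chosen for their differences, so that rate need not hold for these groups. DOP replicate 5, the library with most muscle RNA, made up 19 of the 38. The causes were not tested.

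In DOP replicate 5 the skeletal muscle markers summed to 79921 CPM. The genes of the muscle fibre and of muscle energy use that lay apart there were ACTA1 at 23994 CPM, TNNT3 at 4962 CPM, PYGM at 4691 CPM, CKMT2 at 361 CPM, GYG1 at 161 CPM, PRKAA2 at 213 CPM, PRKAG3 at 94.2 CPM and PPARGC1A at 9.80 CPM. Of glycolysis, GAPDH was at 9614 CPM, PKM at 3204 CPM and LDHA at 2231 CPM there. Of the largest falls, POPDC3 was at 23.3 CPM, ACSM5 at 16.7 CPM, MAFA at 15.1 CPM and NKAIN1 at 7.29 CPM in the same pig. NUSAP1 at 370.4 CPM, ALDH2 at 211 CPM and PDE4B at 58.05 CPM completed its list.

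DOP replicate 2 held the most globin RNA, with HBB at 15329 CPM and the erythrocyte markers at 15844 CPM in sum, and also the highest DSG1 of its diet, 0.189 CPM. DOP replicate 4 was highest in ANGPTL4 at 76.7 CPM and in KRT1 at 1.05 CPM, and DOP replicate 3 in ACAT2 at 75.3 CPM and BMAL1 at 20.1 CPM.

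Among the WCOC pigs, replicate 5 was highest in the epidermal sum at 137 CPM, in KRT1 at 59.9 CPM and in INSIG1, a brake on sterol synthesis, at 167 CPM. WCOC replicate 4 was highest in the muscle genes TNNT3 at 75.4 CPM, DES at 48.2 CPM, PRKAG3 at 1.62 CPM and HSPB8 at 5.50 CPM. WCOC replicate 2 was highest in CAMK1G at 16.1 CPM, PIMREG at 1.01 CPM and CEBPD at 57.95 CPM. WCOC replicate 1 was lowest in SQLE at 29.1 CPM and highest in MX2 at 44.0 CPM.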

How the results depend on the processing

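The number of DEGs was 1158 (396 higher, 762 lower) and stayed within 1.5 times of this with the size factors of DESeq2, other TMM genes, other filters, robust dispersion, the 10 libraries alone and the macrophage covariate. DESeq2 called 1424 and limma-voom 822 genes, of which 466 were lower. Without a limit on log2FC 1842 genes were called, 768 of them higher, and glmTreat called 80 (13 higher, 67 lower). The muscle covariate gave 447 (158 higher, 289 lower) and flow cell as covariate 1 (1 higher, 0 lower). With only WCOC libraries of lane 2 there were 356 (170 and 186), with only those of lane 8 378 (150 and 228), and without DOP replicates 2, 4 and 5 80 (7 and 73). WCOC and DOP values that do not overlap numbered 1328 genes with all libraries (8.9%) and 2607 without these 3. Fewer libraries in a group make a lack of overlap more likely by themselves, so the counts cannot be compared.

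Leaving out 1 library at a time gave 639 to 1291 DEGs, 229 to 429 higher and 364 to 889 lower, and WCOC and DOP values that do not overlap in 1451 to 2213 genes. The lowest counts were 639 without WCOC replicate 1, 700 without WCOC replicate 4, 699 without DOP replicate 5 and 731 without DOP replicate 2; lower calls were also few without WCOC replicate 3 (464) or 5 (448), and the 2213 came without WCOC replicate 2. The calls lower in WCOC ranged over 25 to 29 of the spindle list, 13 to 14 of replication, 2 to 7 of fatty acid synthesis, 4 to 10 of oxidation, 4 to 11 of the cycle, 11 to 30 of the respiratory chain, 2 to 10 of the collagens and 0 to 25 of skeletal muscle.

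Among the lists, muscle calls were 0 by voom, 3 by robust dispersion, 8 in the 10 libraries alone, and 0 with lane 2, lane 8, the muscle covariate, flow cell, or without DOP replicates 2, 4 and 5. Fatty acid synthesis had 0, 3, 4, 0 and 0 calls in lane 2, in lane 8, with the muscle covariate, with flow cell and without the 3 libraries. Under the same settings oxidation had 1, 4, 4, 0 and 0, and the cycle 2, 5, 3, 0 and 0. The respiratory chain had 7 in lane 2, 5 with the muscle covariate and 0 with flow cell or without the 3 libraries. The collagens had 4 in the 10 libraries alone, 1 in lane 2, 3 in lane 8 and 0 in the last pair of settings. The spindle list had 0 with flow cell and 16 without the 3 libraries, and replication 7 in lane 2, 0 and 5. The glmTreat limit left 19 spindle and 4 replication genes. Spindle and replication counts stayed within 1.5 times in the other settings outside the block.

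The replicate numbers are shared by the diets but did not pair the pigs: the correlations of deviations of same-numbered pigs were -0.20, -0.06, 0.29, 0.18 and -0.07, and no pig correlated best with its own number. A replicate block lowered the DEGs to 561 (231 higher, 330 lower), with 0 muscle, 3 synthesis, 2 oxidation, 3 cycle and 4 collagen calls. In the 10 libraries alone the block gave 254 (91 and 163), with 0, 1, 2, 2 and 0 of these, 12 of the respiratory chain, 17 of the spindle list and 4 of replication.

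Directions changed in 27 cases. The flow cell covariate rests on C replicate 5, the control with the highest sums of macrophage, T and NK cell and interferon-stimulated genes. The make-up of that library and its flow cell cannot be told apart. With flow cell as covariate the medians of log2FC were -0.18 for adipocyte, 0.19 for macrophage, 0.78 for T and NK cell, 0.0088 for mast cell, -0.0018 for lipolysis, 0.43 for interferon-stimulated, 0.39 for chemokine, 0.13 for lysosome and -0.019 for HOX genes, and CSF1R was at 0.62 (0.072 with the macrophage covariate). Without DOP replicates 2, 4 and 5 they were 0.79 for skeletal muscle, 1.87 for erythrocyte and 0.0700 for angiogenic genes, with CKMT2 at 0.85, TNNT3 at 0.38, PYGM at 0.21, ACTA1 at 0.86, DES at 0.95, PRKAG3 at 0.86, PPARGC1A at 0.44 and HSPB8 at 0.95. ACTA1 was at 0.012 with the muscle covariate and ADIPOQ at -0.086 in lane 8 and -0.0503 without WCOC replicate 1. Leaving out 1 library at a time, the erythrocyte median ranged from -3.39 to 0.86 and that of immediate early genes from -0.55 to 0.45, both highest without DOP replicate 2. The causes were not tested beyond the make-up of these fits. Few counts behind genes near 1 CPM, and 5 pigs in 1 pen per diet, limit the precision.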
